A study of Mus musculus with 21 samples.

Results

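Iron-sulfur cluster assembly was followed in the midbrain of mice through 8 genes, which were Isca1, Isca2, Iscu, Nfs1, Glrx5, Cisd1, Cisd2 and Fdx1. They were chosen by gene symbol, and the choice rested on Isca1, whose values had been seen to rise with irisin given before MPTP and to lie on separate levels between mice. All 8 genes were found among the 33829 genes listed for the pre-treatment experiment and the 55385 genes listed for the delayed treatment experiment, and all 8 were among the 22641 and 21922 genes with enough reads to be tested.

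RNA-seq was carried out on 21 male C57BL/6 mice of 6 weeks in 7 groups of 3. In the pre-treatment experiment, control mice received water (ddH2O) for 10 days, MPTP mice received water for 5 days and MPTP at 30 mg/kg per day for 5 days, and the third group received irisin at 200 μg/kg per day for 5 days followed by the same MPTP course. In the delayed treatment experiment there were control mice (water for 10 days), mice given irisin alone after 5 days of water, mice given MPTP with 5 days of water, and mice given MPTP followed by irisin, at the same doses. All injections were intraperitoneal, and the tissue, labelled midbrain, was described as nigral tissue dissected by hand after perfusion.

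MPTP is converted in the brain to a toxin that enters dopaminergic neurons and blocks complex I of the mitochondrial respiratory chain, and irisin is a peptide released from the muscle membrane protein FNDC5. Iron-sulfur clusters are cofactors made of iron and inorganic sulfide that carry electrons in complexes I, II and III and sit in the active site of aconitase. In mitochondria the cysteine desulfurase Nfs1 supplies the sulfur, the scaffold Iscu holds the new cluster, and ferredoxins, the family of Fdx1 and Fdx2, donate electrons. The glutaredoxin Glrx5 passes the cluster on, and Isca1 and Isca2 act together in the late step that makes the larger, cubane-type clusters. Cisd1 (mitoNEET) of the outer mitochondrial membrane and Cisd2 of the endoplasmic reticulum membrane themselves carry a cluster, and are not parts of the core machinery that builds it.

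Isca1 (ENSMUSG00000044792) lies on the minus strand of chromosome 13 at 59755409 to 59769810 (GRCm38, as the coordinates in the tables), and its longest protein coding transcript in GENCODE vM21, Isca1-201, has 4 exons. Its start shares a stretch of 314 bases with Etohd2 on the opposite strand. The promoter window of Isca1, from 250 bases before to 50 bases after the start (RefSeq, GRCm38.p6, chr13:59769740-59770039, minus strand), is shown because it also holds most of the promoter window of Etohd2, the starts being 177 bases apart and the windows sharing 276 bases. The capitals mark an ETS core, CCGGAAG read on the other strand.
Isca1 promoter: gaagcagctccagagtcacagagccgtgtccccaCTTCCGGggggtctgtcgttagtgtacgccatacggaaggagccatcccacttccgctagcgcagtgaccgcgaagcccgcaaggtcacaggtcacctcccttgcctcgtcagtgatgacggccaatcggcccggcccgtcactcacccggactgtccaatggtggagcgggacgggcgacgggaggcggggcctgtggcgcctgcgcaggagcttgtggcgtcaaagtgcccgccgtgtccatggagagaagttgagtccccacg
The values of Etohd2 are given with those of the other neighbours.

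The total count was 66.7 to 75.6 M (mega) reads per mouse in the pre-treatment experiment and 48.8 to 77.2 M in the delayed treatment experiment, of which mitochondrial genes took 10.6 to 12.9% and 7.65 to 9.50%. Values per mouse are counts per M of reads (CPM) scaled by TMM within each experiment. All 7 dopaminergic genes were tested and 6 of them had a mean of 1 FPKM or more over the mice of each experiment. The summed FPKM of these genes was 71.2 to 80.1 in control mice and 38.4 to 59.1 in MPTP mice of the delayed treatment experiment, and 58.7 to 97.2 and 57.2 to 106 in the pre-treatment experiment. The choroid plexus genes Ttr, Kl and Folr1 varied far more, with a sum of 2.54 to 13.6 FPKM in 8 mice of the pre-treatment experiment, 1175 in MPTP mouse 2, and 19.2 to 1164 in the delayed treatment experiment. In bulk tissue, fewer cells of a type and less RNA per cell cannot be told apart.

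Isca1 stood on 2 levels across the 21 mice. In the pre-treatment experiment it was at 184, 172 and 166 CPM in the control mice, at 79.4, 85.7 and 82.4 CPM in the MPTP mice, and at 168, 153 and 163 CPM in the mice given irisin before MPTP. All 3 MPTP mice were thus below every mouse of both other groups, and the control and irisin groups overlapped. In the delayed treatment experiment the split ran through the groups: the control mice had 74.5, 65.9 and 177.6 CPM, the mice given irisin alone 180.4, 172 and 77.5 CPM, and the MPTP mice 189.7, 75.03 and 183 CPM. The mice given irisin after MPTP had 169, 187 and 201 CPM, and were the only group of this experiment without a mouse on the low level.

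**Figure D1:**
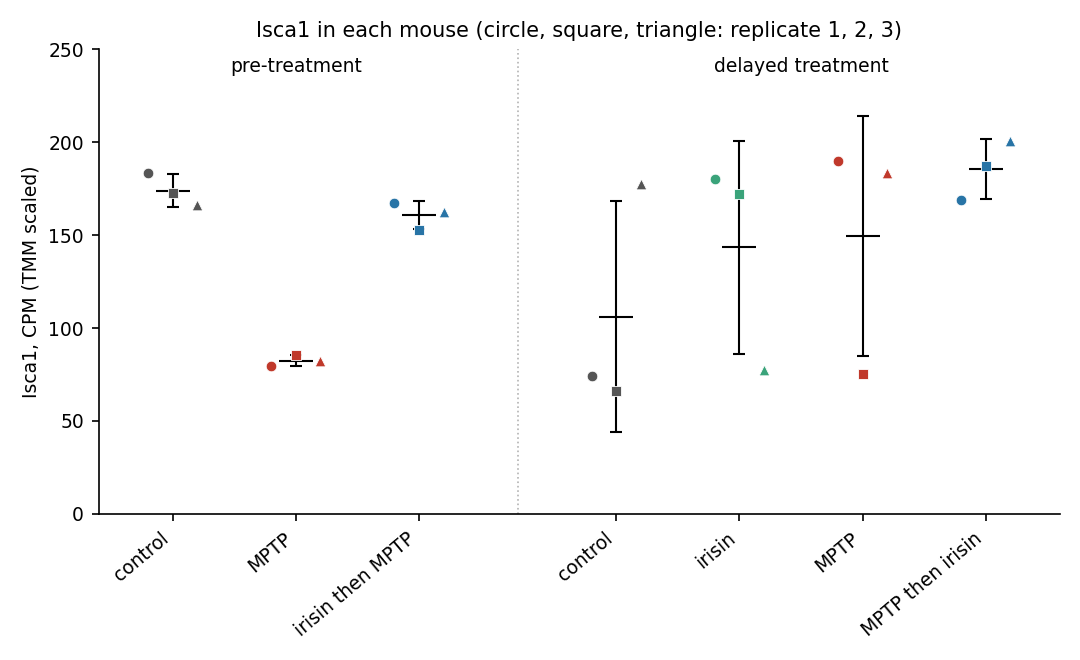
CPM of Isca1 (linear axis) in each of the 21 mice by group, with horizontal bars for the mean and error bars for the SD of 3 mice. Of the 21 mice, 7 lie between 65.9 and 85.7 CPM and 14 between 153 and 201 CPM, and the control, irisin and MPTP groups of the delayed treatment experiment each hold mice on both levels.

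The low level held 7 mice (median 77.5 CPM) and the high level 14 mice (median 175 CPM), a ratio of 2.26. No mouse lay between 85.7 and 153 CPM, which is a gap of 1.78-fold where the next largest gap between neighbouring mice was 1.13-fold. The experiments were scaled separately. The low level was at 79.4 to 85.7 CPM in the first and 65.9 to 77.5 CPM in the second, and these ranges did not overlap. These values rested on many reads, with 3442 to 6186 counts of Isca1 in each mouse on the low level and 9446 to 12309 counts on the high level. FPKM was at 5.44 to 7.22 and 12.7 to 16.7 on the low and high level. It rests on the same counts and is not separate support for the levels.

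The group differences of Isca1 are given as descriptions with no test, since the gene was chosen for this pattern. Isca1 was at 0.474 times the control level in MPTP mice of the pre-treatment experiment, a log2 difference of -1.08 ± 0.06 (SE, n = 3 per group), and at 1.95 times the MPTP level in mice given irisin first, a log2 difference of 0.96 ± 0.06. In the delayed treatment experiment the direction of the MPTP difference was the opposite one, with a log2 difference of 0.49 ± 0.44 between MPTP and control mice (149 ± 64.5 against 106 ± 62.2 CPM, SD, n = 3). The log2 difference was 0.31 ± 0.44 for irisin after MPTP and 0.44 ± 0.44 for irisin alone, so that no difference of the delayed treatment experiment was much above its SE. The irisin difference after MPTP less that of irisin alone was -0.12 ± 0.62.

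Single mice moved these values widely in the delayed treatment experiment, where groups held mice of both levels. Leaving out each mouse in turn gave pre-treatment differences of -1.11 to -1.04 for MPTP and of 0.937 to 0.99998 for irisin. Each pre-treatment group lay on a single level, so leaving out a mouse could move them little. It cannot tell a treatment difference from mice of the same level falling in the same group. The difference between irisin after MPTP and MPTP went to -0.01 without MPTP mouse 2, which was on the low level, and to 0.52 without MPTP mouse 1. The difference between MPTP and control mice was 0.24 without control mouse 2 and 1.09 without control mouse 3, and that of irisin alone 0.19 and 1.03 without the same mice. Within groups, the SD of Isca1 on the log2 scale was 0.066 in the pre-treatment experiment, where 5.63% of tested genes were lower, and 0.646 in the delayed treatment experiment, where the median of all genes was 0.253.

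Sums of endothelial and erythrocyte marker genes differed between some groups of the pre-treatment experiment. The microglia, astrocyte and oligodendrocyte sums of the MPTP mice overlapped those of both other groups. Of all single genes, 11.6% had groups without overlap for MPTP against control, and 14.2% for irisin before MPTP against MPTP. The endothelial genes Cldn5, Pecam1 and Flt1 summed to 15.5 to 17.6 FPKM in the MPTP mice of the pre-treatment experiment, below the 18.5 to 19.6 of the control mice and the 18.3 to 18.5 of the mice given irisin first. The erythrocyte genes Hbb-bs, Hba-a1 and Alas2 summed to 369 to 566 FPKM in the MPTP mice and to 156 to 309.7 in the mice given irisin first, with 359 to 551 in the control mice. Their part in the Isca1 difference was not tested. The choroid plexus sum was 1175 FPKM in MPTP mouse 2 and 3.05 and 4.05 in the other MPTP mice. Its part in the Isca1 values was not tested either.

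The 7 other genes were followed in the same mice, and for them the 5 comparisons other than the pre-treatment irisin difference were tested. In the pre-treatment experiment, 0 of the 7 genes passed the threshold of 0.05 for MPTP against control (edgeR, quasi-likelihood test with Benjamini-Hochberg adjustment over all genes, two-sided, smallest adjusted p = 0.852), where 0.0221% of the tested genes passed. At an unadjusted p under 0.05 the count was also 0 of 7, beside 6.03% of all genes. DESeq2 called 0 of the 7, and 82 among all genes with any count. The groups overlapped for all 7, while they did not for 11.6% of all genes. The log2 differences had a median of -0.13, beside -0.002 over all genes, and 6 of the 7 were below 0.

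The sulfur donor Nfs1 had the largest of these, with 37.9, 34.0 and 33.4 CPM in MPTP mice against 38.4, 37.4 and 41.5 CPM in control mice, a log2 difference of -0.16 ± 0.09 (SE, edgeR, adjusted p = 0.852). MPTP mouse 1 lay within the control range. Isca2, the partner of Isca1, had 14.5, 14.3 and 14.9 CPM against 14.4, 16.3 and 17.4 CPM, a log2 difference of -0.14 ± 0.10 (edgeR, adjusted p = 0.892). The partner thus differed by 0.907-fold where Isca1 differed by 0.474-fold. Glrx5, Iscu, Cisd1 and Fdx1 were between -0.14 and -0.08, and Cisd2 was at 0.01 ± 0.06.

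For irisin before MPTP against MPTP, the contrast behind the choice, the 7 other genes are described without a test. Their log2 differences ran from -0.07 (Glrx5) to 0.12 (Nfs1), with a median of 0.02 and 4 above 0, and no gene had groups that did not overlap. All genes had a median of 0.003, 0.0707% of them passed the adjusted threshold and 14.2% had groups that did not overlap. Iscu was the most variable, with 114.9, 75.7 and 64.6 CPM in the mice given irisin first and 94.1, 71.9 and 85.7 CPM in MPTP mice. Glrx5 was the least variable of them in the irisin group, at 30.5, 30.0 and 30.3 CPM, beside 28.4, 34.6 and 32.5 CPM in MPTP mice and 34.2, 35.6 and 35.0 CPM in control mice.

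**Figure D2:**
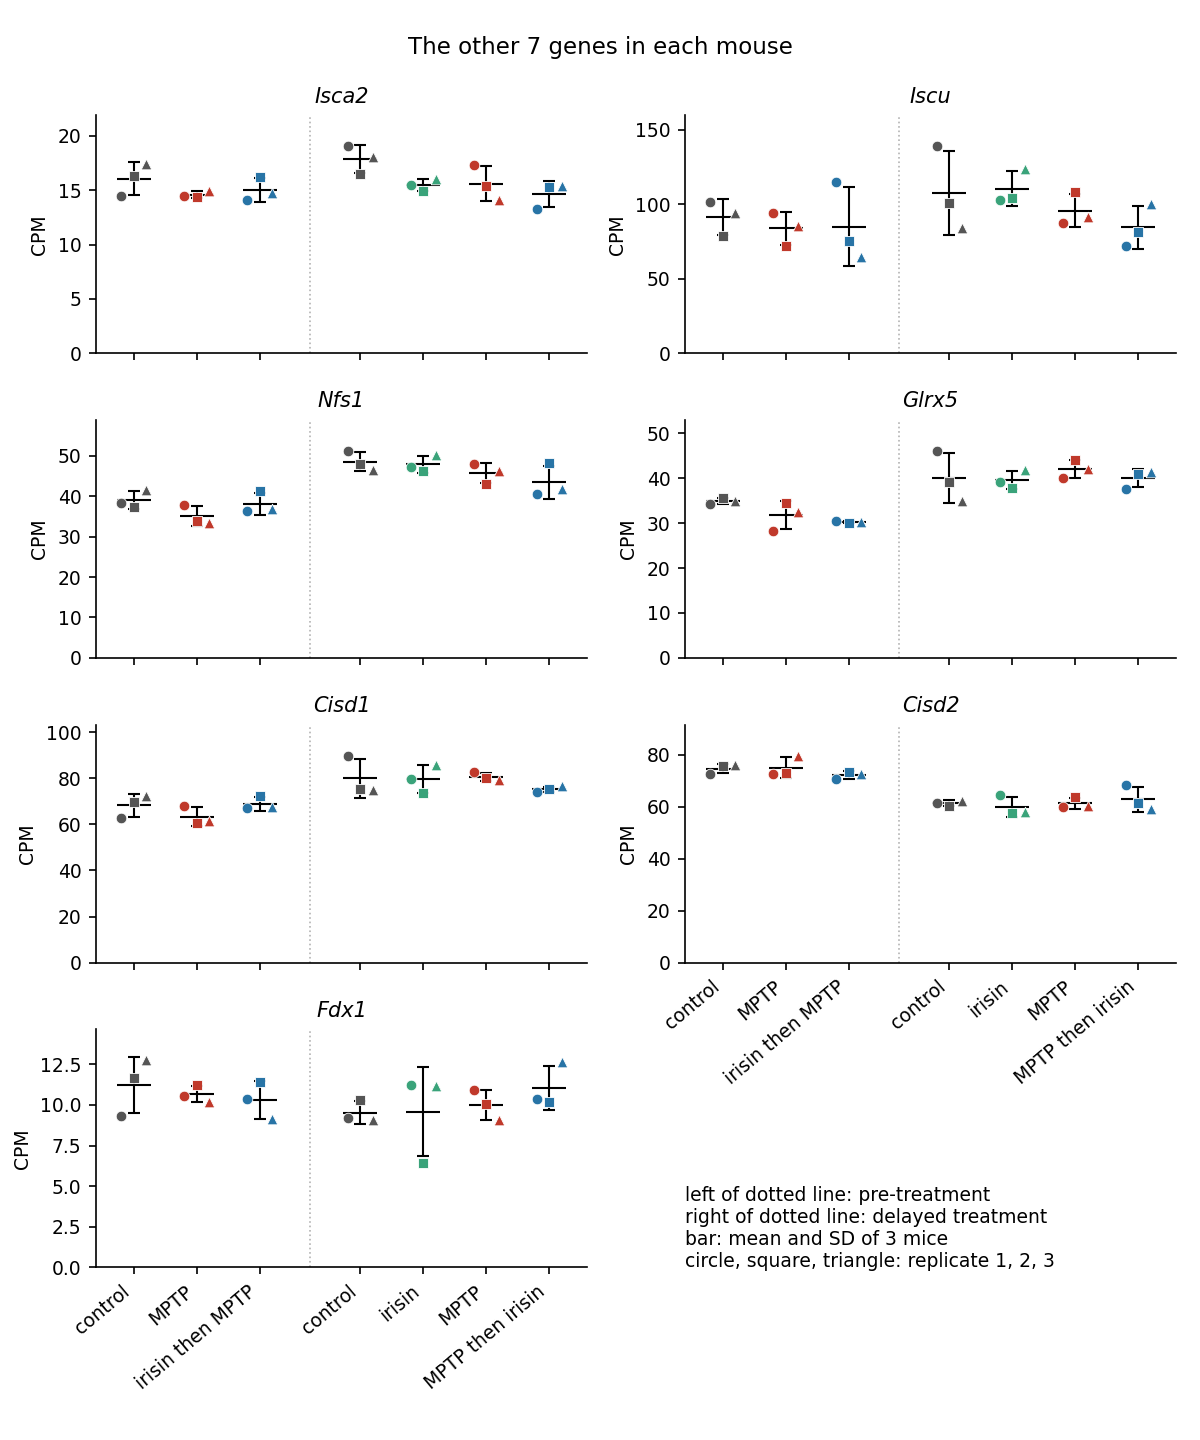
CPM of Isca2, Iscu, Nfs1, Glrx5, Cisd1, Cisd2 and Fdx1 in each mouse by group (linear axes from 0, one scale per gene), with the mean and SD of 3 mice. The groups lie close together for every gene, Iscu spreads from 64.6 to 139 CPM, and the circle of the delayed controls (mouse 1) is the highest point of its experiment for Isca2, Iscu, Nfs1, Glrx5 and Cisd1.

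For MPTP against control in the delayed treatment experiment, 0 of the 7 genes passed the threshold (edgeR, smallest adjusted p = 0.655), against 0.132% of all genes. The count at an unadjusted p under 0.05 was 0 (8.33% of all genes). DESeq2 called 0 of the 7, and 151 among all genes with any count. All 7 had groups that overlapped (16.2% of all genes did not). Isca2 had the smallest p, with 17.3, 15.4 and 14.1 CPM in MPTP mice and 19.0, 16.5 and 18.1 CPM in control mice, a log2 difference of -0.20 ± 0.10 (edgeR, adjusted p = 0.655). Only the MPTP mouse with 17.3 CPM was within the control range. The median of the 7 was -0.001, the same as that of all genes to 3 decimals, and 4 were below 0.

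Irisin after MPTP against MPTP likewise gave 0 of 7 genes past the threshold (edgeR, all adjusted p = 0.9995), where 0.00456% of all genes passed. At an unadjusted p under 0.05 it gave 0 of 7 (3.9% of all genes). DESeq2 called 0 of the 7, and 25 among all genes with any count. Cisd1, the cluster protein of the outer mitochondrial membrane, had 74.1, 75.2 and 76.5 CPM after irisin and 82.7, 80.0 and 79.4 CPM without it. These groups did not overlap, as for 10.7% of all genes, and the log2 difference was -0.10 ± 0.08 (edgeR, adjusted p = 0.9995). The remaining log2 differences ran from -0.18 ± 0.18 for Iscu to 0.14 ± 0.19 for Fdx1.

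Irisin alone against control gave 0 of 7 genes past the threshold (edgeR, smallest adjusted p = 0.569), against 0.109% of all genes. At an unadjusted p under 0.05 it gave 0 of 7 (8.97% of all genes). DESeq2 called 0 of the 7, and 116 among all genes with any count. Isca2 was the gene with the smallest p of all 5 comparisons. It had 15.5, 14.9 and 16.005 CPM with irisin alone, below each of the 19.0, 16.5 and 18.1 CPM of the control mice, at a log2 difference of -0.21 ± 0.10 (edgeR, adjusted p = 0.569). Groups without overlap occurred for 1 of the 7 genes and for 15.1% of all genes. The 6 others differed by -0.03 to 0.04.

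Whether the irisin difference depended on MPTP was tested by an interaction term. It was past the threshold for 0 of the 7 genes (edgeR, smallest adjusted p = 0.959) and for 0.0411% of all genes. At an unadjusted p under 0.05 the counts were 0 of the 7 and 5.57% of all genes. DESeq2 called 0 of the 7, and 58 among all genes with any count. The widest estimate was that of Iscu, at -0.22 ± 0.25.

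**Figure D3:**
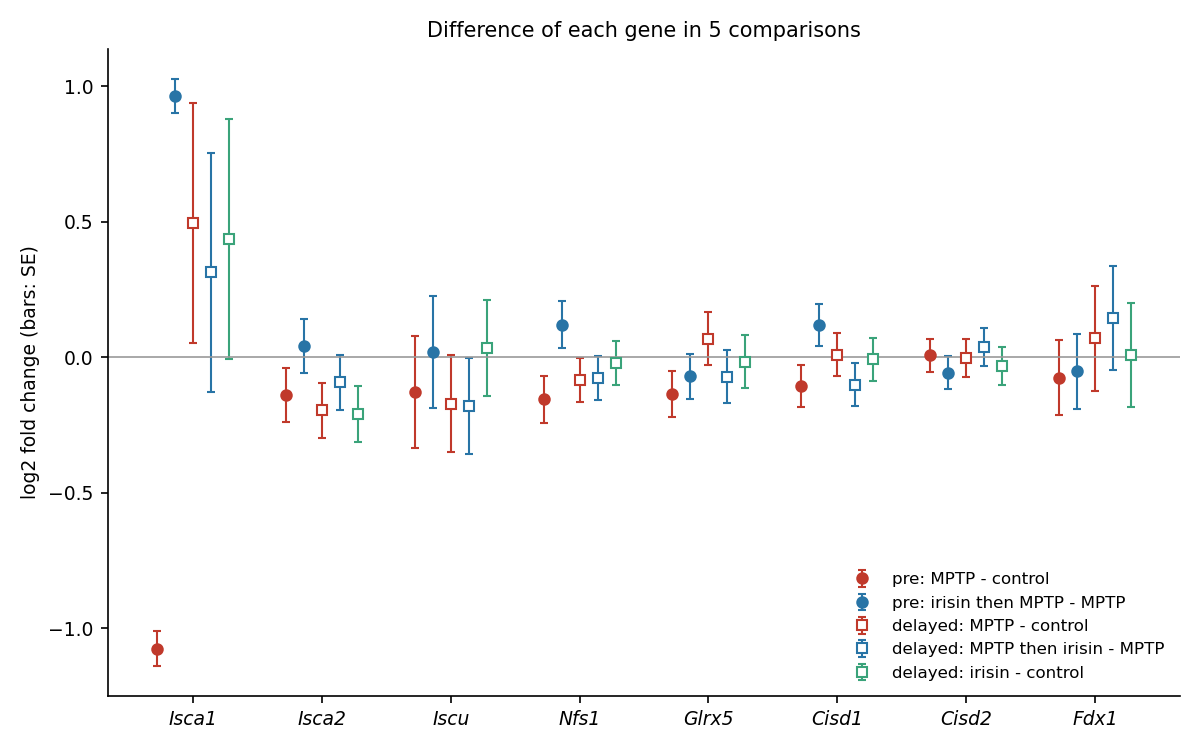
Log2 fold changes of the 8 genes in 5 comparisons (linear axis, error bars are SE of the edgeR fit on 3 mice per group). Isca1 lies near -1.08 and 0.96 in the pre-treatment experiment, while every other gene lies between -0.21 and 0.14.

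A single control mouse among the 12 delayed treatment mice weighed on several genes. Control mouse 1 had the highest CPM of the 12 mice for 5 of the 8 genes, with 19.0 CPM of Isca2, 139 of Iscu, 51.2 of Nfs1, 46.1 of Glrx5 and 89.9 of Cisd1, while its Isca1 was on the low level at 74.5 CPM. This library also had the lowest total count, 48.8 M, and its choroid plexus sum was 1056 FPKM. That sum was higher still in MPTP mouse 3 (1096 FPKM) and in mouse 2 given irisin after MPTP (1164 FPKM). The part of total count and choroid plexus in these values was not tested. Without control mouse 1 the difference between MPTP and control mice changed from -0.17 to 0.05 for Iscu and from 0.01 to 0.10 for Cisd1. In the pre-treatment experiment control mouse 3 was the highest mouse for 4 genes, Isca2, Nfs1, Cisd1 and Fdx1.

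The genes differed in how much they varied between mice of a group. Cisd2 was the steadiest, with a within-group SD on the log2 scale of 0.052 (pre-treatment) and 0.076 (delayed treatment), and its CPM stayed within 70.5 to 79.6 and 57.6 to 68.1. Nfs1, Glrx5, Cisd1 and Isca2 had SDs of 0.086 to 0.117. Iscu (0.294 and 0.247) and Fdx1 (0.168 and 0.259) were wider, and were near the medians of all genes (0.265 and 0.253) apart from Fdx1 in the pre-treatment experiment. The lowest Fdx1 value, 6.43 CPM, was that of mouse 2 given irisin alone, whose group mates had 11.2 and 11.1 CPM.

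Levels between genes were compared per length. By FPKM, Cisd1 was the most abundant of the 8 transcripts in both experiments (54.7 ± 3.59 and 64.6 ± 4.03 FPKM, SD over 9 and 12 mice), followed by Iscu (35.4 ± 6.41 and 40.6 ± 7.46 FPKM), Isca1 (11.5 ± 3.58 and 12.1 ± 4.55 FPKM) and Nfs1 (9.19 ± 0.717 and 11.4 ± 0.745 FPKM). Cisd2, Glrx5 and Isca2 followed at 7.31 to 8.55 and 7.09 to 9.75 FPKM, and Fdx1 was lowest at 3.06 ± 0.336 and 2.87 ± 0.439 FPKM. In that order, Isca1 and Nfs1 in both experiments and the pairs of neighbours from Nfs1 to Isca2 in the pre-treatment experiment differed by less than the sum of their SDs, as did Isca2 and Cisd2 in the delayed treatment experiment.

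The place of Isca1 in this order depended on the length used. The lengths implied by the counts, the total counts and the FPKM values were 1.13 times the merged exons of all transcripts for each of the 8 genes. A read total behind the FPKM other than the total count would also give an even ratio, and this was not tested. For Isca1 the merged exons span 10680 bases, since 4 of its 7 annotated transcripts retain introns, whereas Isca1-201 has 1942 bases. Per length of the longest protein coding transcript, an alternative chosen after seeing the data, Isca1 was first of the 8 in both experiments at 71.6 ± 22.2 and 75.2 ± 28.1 CPM per kilobase, beside 61.7 ± 4.06 and 72.8 ± 4.57 for Cisd1 and 62.2 ± 11.3 and 71.4 ± 13.2 for Iscu, and the differences were smaller than the SD of Isca1.

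The rest of the pathway was read through 3 lists, which were 14 further genes of the mitochondrial assembly machinery, 11 of the cytosolic assembly machinery and 11 genes whose proteins carry a cluster. All 36 genes were tested, and 0 passed the adjusted threshold in any of the 6 comparisons (edgeR). At an unadjusted p under 0.05, each list had 0 or 1 gene in each comparison, beside 3.9 to 8.97% of all genes in the 5 comparisons tested above, so that 1 gene of 11 or 14 was near the share over all genes. DESeq2 called 1 gene of the lists, Ciao3 for irisin alone. There it called 116 among those of the 55385 listed genes that had any count. The median log2 differences of the lists lay between -0.09 and 0.09, and those of all genes between -0.002 and 0.003.

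Of the mitochondrial machinery, Fdxr, the reductase that passes electrons to ferredoxin, had 18.4, 18.8 and 15.97 CPM in MPTP mice and 21.2, 21.4 and 21.7 CPM in control mice of the pre-treatment experiment, at a log2 difference of -0.27 ± 0.09 (edgeR, adjusted p = 0.818). Lyrm4, a subunit of the desulfurase complex of Nfs1, had 27.7, 26.9 and 30.3 CPM with irisin alone and 23.4, 25.7 and 24.8 CPM in control mice, at 0.20 ± 0.08 (edgeR, adjusted p = 0.531). Neither gene's groups overlapped, as for 11.6% and 15.1% of all genes in these comparisons, and neither passed the adjustment. The acyl carrier protein Ndufab1, which belongs to the same complex, was at -0.20 ± 0.10 for MPTP in the delayed treatment experiment (edgeR, adjusted p = 0.64), and the chaperone Hspa9, which helps to pass the cluster from Iscu, at 0.09 ± 0.05 for irisin alone (edgeR, adjusted p = 0.591).

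Of the cytosolic machinery, Ciao3, which links the early and late steps there, had 25.5, 27.7 and 27.1 CPM with irisin alone and 32.8, 34.9 and 31.3 CPM in control mice. The groups did not overlap, as for 15.1% of all genes, and at -0.30 ± 0.07 this was the smallest p of the 3 lists (edgeR, adjusted p = 0.27, DESeq2 adjusted p = 0.0388). The MPTP mice of the delayed treatment experiment, compared with the same control mice, had 28.3, 29.8 and 28.3 CPM of Ciao3, and the mice given irisin after MPTP had 25.4, 25.1 and 25.6 CPM. Neither of these differences, -0.20 ± 0.07 and -0.18 ± 0.07, passed the adjustment (edgeR, adjusted p = 0.462 and 0.9995), and neither had groups that overlapped (16.2% and 10.7% of all genes did not). Bola2 was at -0.18 ± 0.08 and Ciao2a at 0.16 ± 0.09 for MPTP in the pre-treatment experiment (edgeR, adjusted p = 0.823 and 0.852), and Nubp1 at -0.20 ± 0.12 for irisin alone (edgeR, adjusted p = 0.627).

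Of the proteins that carry a cluster, the haem enzyme Fech had 47.8, 51.9 and 51.8 CPM after delayed irisin and 60.6, 59.7 and 61.9 CPM in MPTP mice, at -0.27 ± 0.09 (edgeR, adjusted p = 0.9995). Sdhb, the iron-sulfur subunit of complex II, had 113, 117 and 113 CPM in MPTP mice and 121, 126 and 139 CPM in control mice of the pre-treatment experiment, at -0.17 ± 0.07 (edgeR, adjusted p = 0.823). Fech and Sdhb had groups that did not overlap, as for 10.7% and 11.6% of all genes in these comparisons, and did not pass the adjustment. The complex I subunits Ndufs8, in the same comparison as Sdhb, and Ndufv2, for irisin alone, were at -0.16 ± 0.07 and -0.22 ± 0.10 (edgeR, adjusted p = 0.823 and 0.545).

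No gene followed the levels of Isca1 closely across the 21 mice when size of change was counted. Likeness was measured by the root mean square difference of log2 CPM, centred within each experiment, over the 21153 genes tested in both experiments, where a smaller value is more alike and a gene that did not vary at all would lie at 0.57. The 5 most alike genes were Gm6883 (0.437), Plk4 (0.45), Mtmr12 (0.454), Ncmap (0.455) and Gm5148 (0.457), and the 3 most like its mirror image were 4930553P18Rik (0.424), Gm25184 (0.434) and Zfp467 (0.437). Gm6883, the nearest, was low in general, at 1.35 to 2.89 CPM in the pre-treatment experiment and 0.498 to 1.93 CPM in the delayed treatment experiment. The other 7 genes of cluster assembly lay between 0.575 (Cisd2) and 0.702 (Iscu), beside a median of 0.628 over all genes. A ranking by Spearman correlation, which leaves out size of change, shared 0 of the 5 genes. Its first genes were Irf7 (0.717 in the pre-treatment and 0.797 in the delayed treatment experiment) and A230001M10Rik (0.717 and 0.783).

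Beside Isca1 on chromosome 13, the genes Etohd2, Tut7, Naa35, Agtpbp1, Golm1 and Gas1 did not share its levels. Within 500 kb of its start coordinate, 14 genes were tested in both experiments. The genes not named here stayed at or below 1.66 CPM, too low for levels to be judged. The nearest were 1700014D04Rik on one side (0.07 to 0.687 CPM, also too low) and Etohd2 on the other. Etohd2, which shares the promoter window shown above, had 9.22, 8.94 and 11.2 CPM in the MPTP mice of the pre-treatment experiment, where Isca1 was low, and 12.99, 8.41 and 12.9 CPM in the control mice. In the delayed treatment experiment its lowest values, 2.50 and 2.11 CPM, were those of control mouse 3 and irisin mouse 1, both on the high level of Isca1. Counts of Etohd2 were small beside those of Isca1, and whether the counting used strand was not given in the sources used here. Tut7, the next gene, varied 1.36-fold and 1.30-fold among the mice of the 2 experiments, with no separate levels.

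Golm1 and Gas1, named after their values were seen, did lie on separate levels, but in other mice. Golm1, a Golgi membrane protein whose start coordinate is 120783 bases lower, was at 2.81 to 5.72 CPM in 10 mice and 12.7 to 21.6 CPM in 11 mice. Of the 7 mice on the low level of Isca1, 5 were low and 2 were high for Golm1, and of the 14 mice on the high level, 5 were low and 9 were high. Gas1, a membrane protein of hedgehog signalling 418996 bases higher, was at 0.0824 to 0.919 CPM in 9 mice and 4.44 to 7.68 CPM in 12 mice. It was low in 3 of the 7 mice on the low level of Isca1 and in 6 of the 14 on the high level. All combinations of levels occurred for both genes.

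**Figure D4:**
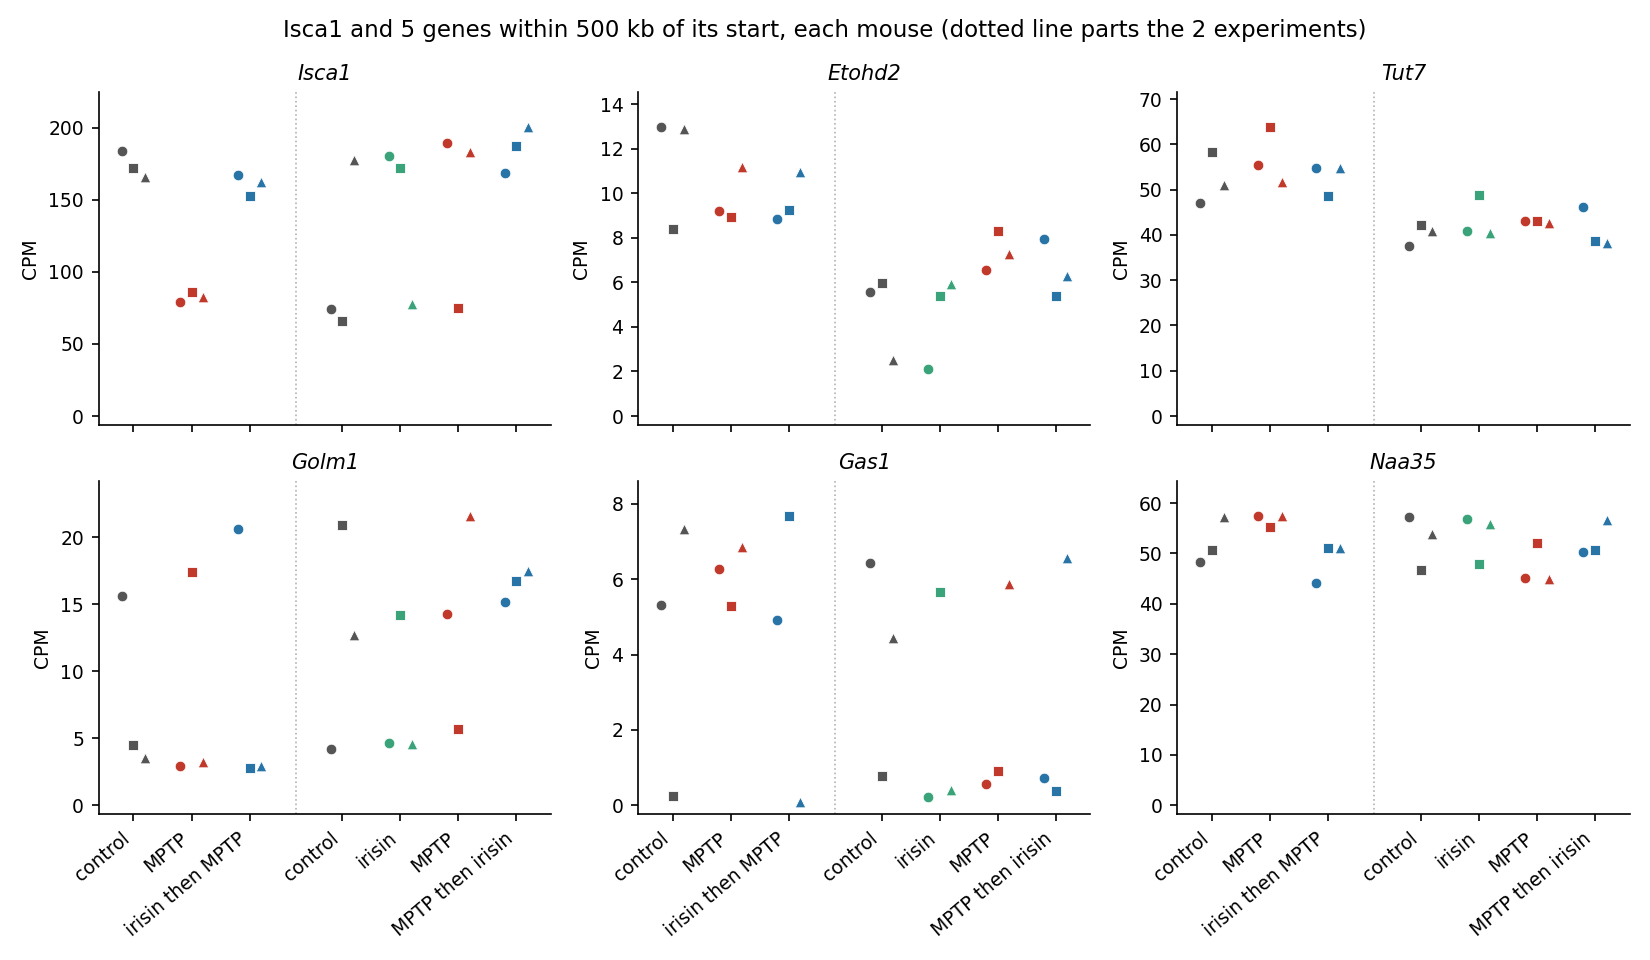
CPM of Isca1 and 5 genes whose start lies within 500 kb of its start, in each mouse by group (linear axes, one scale per gene, symbols for replicates 1, 2 and 3 as circle, square and triangle). Golm1 and Gas1 each show a low and a high set of mice as Isca1 does, the sets differ from gene to gene, and Tut7 and Naa35 show no such sets.

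RefSeq promoter windows of 300 bases were matched for 7 of the 8 genes, with Iscu the one without a match. They held 52 to 69.7% G and C and 16 to 42 CpG, beside medians of 52.7% and 7 over 32851 promoters. Both strands were searched for 4 motifs. The ETS core CCGGAAG was found for Isca1, Isca2 and Nfs1 (8.86% of all promoters hold it), the NRF-1 core CGCATGCG for Cisd1 (1.87%), the GC box GGGCGG for Isca2, Cisd1, Cisd2 and Fdx1 (35.7%) and the TATA box TATAAA for none (13.6%). Isca1 and its partner Isca2 thus both held the ETS core. A link between any of these motifs and the values between mice was not tested.

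Reads of 2 of the 8 genes could be shared with overlapping genes. Besides Etohd2 at Isca1, Nfs1 (chromosome 2) overlaps Romo1 by 148 bases on the opposite strand and Gm28036 by 3454 bases on the same strand. Gm28036 ran from 0.447 to 27.8 CPM in the pre-treatment experiment and from 0.22 to 36.3 CPM in the delayed treatment experiment, and the value of Nfs1 is to that extent uncertain. The annotation also places Gm49354 over 10876 bases of Isca1 on the same strand, and this gene had 0 counts in all 12 mice of the delayed treatment experiment.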

How the data were processed

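RNA was measured in 21 mouse midbrain samples in 7 groups of 3 by their labels, as separate mice. The authors counted reads with featureCounts and deposited a raw count and an FPKM value of each gene in each mouse, in 1 table per experiment. Per the labels, the processing notes name HISAT, StringTie, edgeR and the build mm9, whereas the coordinates in the tables match GRCm38. Whether strand was used is not given in the sources used here.

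Counts were tested with edgeR 4.0.16 in R 4.3.3 (filterByExpr at 10 counts and 15 in total, TMM, quasi-likelihood test, two-sided, Benjamini-Hochberg over all tested genes, threshold 0.05). All groups of an experiment were in 1 fit, without a replicate block, and experiments were never fitted together. The SE is the log2 fold change divided by the square root of F. FPKM was used for levels between genes and for sums of marker genes. Exon lengths were taken from GENCODE vM21 and promoters from RefSeq. The steps were tested on simulated counts. The script language was Python 3.11.15.

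The genes and lists were chosen with earlier results of these data known. Named from each of 3 pathway lists were the 4 genes with the smallest p over the 5 tested comparisons and any past the threshold, from 21153 genes the 5 most like Isca1 and the 3 most like its mirror image, and the nearest neighbours on each side. Replicate numbers are not said to pair mice. Same-numbered mice of different groups did not deviate together over all genes, with correlations of -0.078 to 0.101 over 9 pairs and -0.076 to 0.039 over 18 pairs. These correlations cannot exclude a pairing with a small effect. No pair of mice in a group had counts within sampling noise of each other (least chi-square per gene 39.7). Alternatives were median ratio scaling, no filter, DESeq2 1.42.0, a replicate block, only the compared groups, leaving out each mouse, Spearman correlation for likeness, and, added later, another length.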

Additional observations from a re-analysis of the deposited data

How the results depend on the processing

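The count of the 7 genes other than Isca1 past the threshold was 0 in each of the 5 tested comparisons under each of the 14 to 17 alternatives run for it, and the smallest of the 602 adjusted p-values was 0.522 (edgeR, Isca2, irisin alone, without mouse 1 of the group given MPTP then irisin). The log2 difference of Isca1 for irisin before MPTP was 0.937 to 0.99998 over all alternatives. With the replicate number as a block, although the numbers are not said to pair mice, it was 0.964 and 0 of the 7 genes were called. The calls over all genes then changed from 5 to 2 for MPTP and from 16 to 8 for irisin in the pre-treatment experiment. Over all genes the calls ranged from 2 to 82, 8 to 158, 10 to 151, 1 to 25, 14 to 116 and 7 to 58 in the order of the report, the highest with DESeq2 without a filter. Levels under median ratio scaling moved by less than the spread between mice for all 56 group means.

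Differences near 0 changed sign. For MPTP in the delayed treatment experiment, Cisd2 went from -0.00113 to 0.00321 with median ratio scaling, 0.0128 with all genes, 0.00709 with DESeq2 and 0.000101 with only the compared groups. For irisin alone, Cisd1 went to 0.00091 with DESeq2 and Fdx1 to -0.0154 with the replicate block. Leaving out each mouse gave, for MPTP in the pre-treatment experiment, -0.0456 to 0.0275 for Cisd2 and -0.201 to 0.0208 for Fdx1. For MPTP in the delayed treatment experiment it gave -0.322 to 0.0509 for Iscu, -0.0348 to 0.0984 for Cisd1, -0.0201 to 0.178 for Glrx5 and -0.0302 to 0.0147 for Cisd2. For irisin alone it gave -0.114 to 0.259 for Iscu, -0.0654 to 0.0817 for Cisd1, -0.103 to 0.0951 for Glrx5, -0.0569 to 0.0182 for Nfs1 and -0.118 to 0.23 for Fdx1. For irisin after MPTP it gave -0.0258 to 0.0843 for Cisd2, and for the interaction -0.165 to 0.0332 for Glrx5 and -0.0844 to 0.261 for Fdx1. The cause was not tested.

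With 3 mice per group, each p-value weighs a group difference against the spread between mice, which was estimated from all groups of the experiment. Differences of several SE could fail the edgeR adjustment over all genes, as that of Ciao3 for irisin alone did (edgeR, adjusted p = 0.27). DESeq2 called this difference of Ciao3 (DESeq2, adjusted p = 0.0388).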
